A study of Mus musculus with 21 samples.

Results

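Zinc water was compared with Milli-Q (purified) water in the Paneth cells of germ-free mice. The comparison used 7 of the 21 RNA-seq libraries of the series, 4 from germ-free mice on zinc (zinc 1 to zinc 4) and 3 from germ-free mice on Milli-Q water (Milli-Q 1 to Milli-Q 3), chosen by their sample labels. Zinc sulfate was given at 200 mM, as the labels state it, and both groups stayed on their water for 7 weeks. Paneth cells were collected from the small intestine by FACS, and by the study's methods each library came from an individual mouse. The study's methods name C57BL/6J mice for the sorted Paneth cells and state that its datasets hold both sexes, without an age or sex for single germ-free mice. The other libraries came from specific pathogen free (SPF) mice (3 on each water) and from mice on a broad mix of antibiotics over the final 3 weeks (4 on each water).

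Paneth cells sit at the base of the small intestinal crypts and release α-defensins, lysozyme and other antimicrobial proteins into the lumen. They store zinc in their granules. In mouse cells, excess zinc is sensed by MTF1, a transcription factor that binds metal response elements (MREs) and turns on the metallothioneins, small cysteine-rich proteins that bind zinc. ZnT proteins (Slc30a genes) move zinc out of the cytosol, and ZIP proteins (Slc39a genes) move it in. Germ-free mice carry no live microbes, which holds for both groups.

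The germ-free libraries held between 9888174 and 14133377 counts, and 13747 (zinc 1) to 16180 (zinc 4) genes had counts. The 6 Paneth cell markers took 39.3% to 43.0% of counts on Milli-Q water and 37.2% to 42.8% on zinc. Of markers of other cells, 6 of 12 immune, 3 of 8 stromal and 3 of 4 red blood cell markers were at 0 in all 7 libraries. None of the enterocyte, goblet, enteroendocrine, tuft or crypt stem cell markers was. The 8 goblet cell markers took 1.06% to 1.21% of counts on Milli-Q water and 0.972% to 1.12% on zinc. The 8 enterocyte markers took 0.0263% to 0.0593% of counts on Milli-Q water and 0.0263% to 0.1495% on zinc, with the highest value in zinc 4. On the first principal component of the 7 libraries (42.5% of the variance), zinc 1, 2 and 3 lay at 71.9, 25.2 and 27.6 and the Milli-Q libraries at -16.0, -50.8 and -26.8. Zinc 4 lay at -31.0, among the Milli-Q libraries. On the second component (16.8%) zinc 2, 3 and 4 lay at -5.26, -46.2 and -24.7, and zinc 1 (28.4) and the Milli-Q libraries (11.8 to 21.2) were on the other side. Levels are given as CPM (counts scaled to a common library size, with TMM factors), and differences as log2 fold changes of zinc over Milli-Q water.

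Of 13070 genes with enough counts, 1485 (11.4%) passed an adjusted p of 0.05, 770 of them higher on zinc (5.89%) and 715 lower (5.47%). The median over all tested genes was -0.02. With library totals in place of TMM it was 0.12, and the calls then split into 689 higher and 45 lower. No library of 1 group overlapped the other in 367 of the 770 and 493 of the 715, and in 14.5% of all tested genes. The 4 zinc libraries did not share in the calls equally. For the 770 genes called higher, the median log2 distance from the Milli-Q mean was 0.97 in zinc 1, 0.83 in zinc 2 and 0.92 in zinc 3. In zinc 4 it was 0.28, and 47.9% of these genes lay within the range of the Milli-Q libraries there, against 0.39% to 2.34% in the other zinc libraries. For the 715 genes called lower, the medians were -0.91, -0.76 and -0.85 in zinc 1 to 3 and -0.31 in zinc 4, where 30.1% of the genes lay within the Milli-Q range.

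Zinc 1 and zinc 4 shifted the count in opposite directions. Without zinc 4, 3435 genes were called, among them 1472 of the 1485. Without zinc 1, 486 genes were called, 469 of them shared. With both left out, 2435 genes were called and 1361 were shared. Other libraries also moved the count: 196 genes were called without zinc 3, 597 without zinc 2 and 563 without Milli-Q 3, while 1806 were called without Milli-Q 1. Without Milli-Q 2, only 5 genes passed. These were Mt2, Mt1, Ly75, an endocytic receptor, Lcorl, a nuclear protein, and Flna, an actin crosslinker, with log2 fold changes between 1.21 (Flna) and 4.90 (Mt2). When the 7 germ-free libraries were fitted without the other groups, 3 genes passed, Mt2, Mt1 and Ceacam10, and without zinc 4 that fit called 2496. Mt2, Mt1, Ly75 and Lcorl were called in each of the 7 fits that left out 1 germ-free library, 170 genes in 6 of them, and 1 gene in none. The 66 genes named by rule included Reg3b, Reg3g, Slc30a10, Mtf1, Lyz1, Slc39a5, Defa24, Mt3, Slc30a2, Orc2, Ndufaf4 and Itln1, which had no call to lose. Of the others, 51 lost their call without Milli-Q 2, 38 without zinc 3, 24 without zinc 1 and 0 without zinc 4, all by edgeR. Only Mt2, Mt1 and Ly75 kept theirs without Milli-Q 2. The 24 that lost their call without zinc 1 all lost it without Milli-Q 2 as well. Their log2 fold changes without zinc 1 were 71.9% to 107% of those with it, with adjusted p from 0.0503 to 0.128. They were Scin, Atp6v1a, Dnajb9, Slc39a10, Apob, Atg9a, Clock, Slc7a1, Ehhadh, Slc12a2, Cox7b, Nfkbia, Ftl1, Acaa1a, Cdhr5, Psmd4, Slc39a4, Tfeb, Ier2, Cd14, Meis3, Zfp692, Rgs11 and Nos2.

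**Figure D1:**
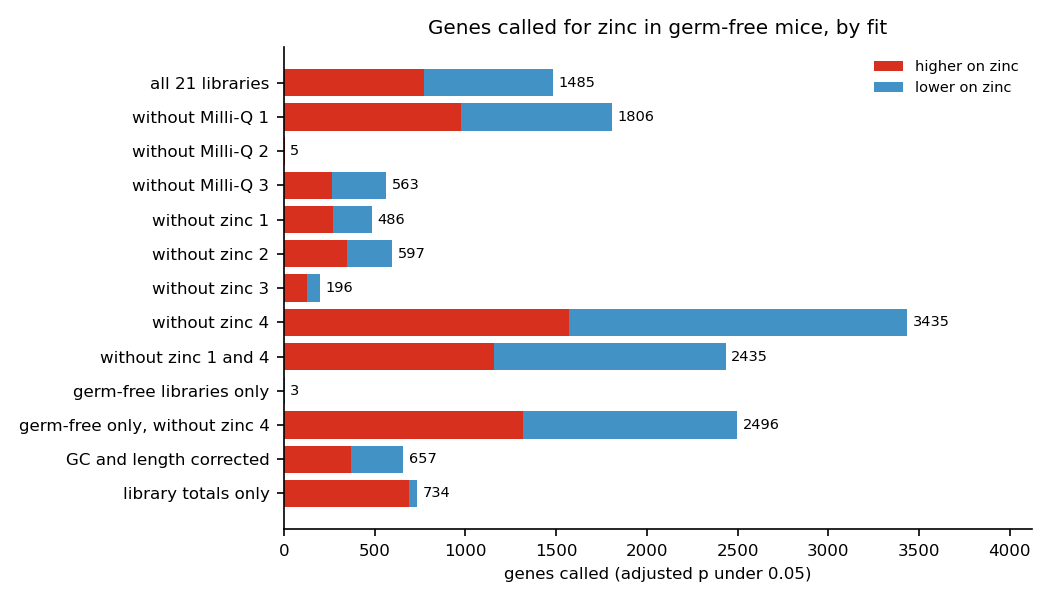
Number of genes called higher (red) and lower (blue) on zinc in germ-free mice (adjusted p under 0.05, horizontal axis) in the fit of all 21 libraries and in fits that leave out libraries or change the scaling. The count runs from 3 in the germ-free libraries alone to 3435 without zinc 4.

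The 4 metallothionein genes lie close together on chromosome 8. To show where MREs could lie, the 250 bases before the canonical transcript start are given for the 3 metallothionein genes that rose and for Slc30a1, the zinc exporter of the plasma membrane (GRCm39 sequence, plus strand, starts from GENCODE M39). Capitals mark the MRE core, searched on both strands as TGCACNC or TGCGCNC.
Mt1, chr8:94905460-94905709: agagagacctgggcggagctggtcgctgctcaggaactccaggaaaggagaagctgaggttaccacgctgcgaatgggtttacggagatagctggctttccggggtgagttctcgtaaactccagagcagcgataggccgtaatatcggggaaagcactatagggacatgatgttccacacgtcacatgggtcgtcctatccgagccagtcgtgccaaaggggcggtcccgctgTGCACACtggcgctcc
Mt2, chr8:94898882-94899131: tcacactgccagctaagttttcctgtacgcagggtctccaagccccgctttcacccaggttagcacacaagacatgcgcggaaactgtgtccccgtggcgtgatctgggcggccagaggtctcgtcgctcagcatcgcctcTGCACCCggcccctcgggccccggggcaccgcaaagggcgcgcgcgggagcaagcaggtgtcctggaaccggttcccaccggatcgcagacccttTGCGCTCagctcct
Mt4, chr8:94863575-94863824: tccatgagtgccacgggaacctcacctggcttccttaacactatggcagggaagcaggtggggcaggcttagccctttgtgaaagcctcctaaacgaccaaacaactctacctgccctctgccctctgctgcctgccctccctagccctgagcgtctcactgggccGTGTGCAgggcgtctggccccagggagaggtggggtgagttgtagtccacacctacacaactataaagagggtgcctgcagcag
Slc30a1, chr1:191638593-191638842: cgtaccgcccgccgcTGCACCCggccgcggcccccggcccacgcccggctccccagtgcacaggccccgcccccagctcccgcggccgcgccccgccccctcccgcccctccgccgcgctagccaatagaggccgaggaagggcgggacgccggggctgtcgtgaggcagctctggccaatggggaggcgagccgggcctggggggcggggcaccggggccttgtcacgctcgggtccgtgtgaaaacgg

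Mt1 held 1 core, 16 bases before its start, and Mt2 held 2, at 109 and 14 bases before its start. Mt4 held 1 core on the reverse strand, 84 bases before its start, and Slc30a1 held 1, 235 bases before its start. Slc30a10, which did not pass, held 2 overlapping matches on opposite strands, 161 and 160 bases before its start. Mt3, Slc39a4, Slc39a10 and Mtf1 held none in this window. The core was common: 21.9% of 21770 promoters of protein-coding genes had at least 1, as did 28.8% of the genes called higher and 25.1% of those called lower, against 26.7% of all tested genes. When the window also took in the bases after the start (500 in all), Mt2 held 7 cores, Mt1 held 5 and Mt3, Slc30a1 and Slc30a10 held 3 each, while 1.69% of all such windows held 4 or more. These positions hold for the GENCODE starts only. Another annotated Mt1 transcript starts 159 bases further into the gene, and the RefSeq starts (GRCm38.p6) lie 7 bases further in for Mt1, with 1 core in the 250 bases before it, and 114 for Mt2, with 3. A match describes these letters only.

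Among called genes at a mean of at least 5 CPM, Mt2 and Mt1 had the largest log2 fold changes. Mt2 (chromosome 8, 94898819 to 94900207) stood at 13.9, 52.7 and 31.4 CPM in Milli-Q 1 to 3 and at 474, 435, 966 and 846 CPM in zinc 1 to 4. Mt1 (94905710 to 94906955) stood at 68.7, 129 and 101 CPM on Milli-Q water and at 511, 442, 1064 and 1097 CPM on zinc. For both genes zinc 3 and zinc 4 were about alike and above zinc 1 and zinc 2, and the groups did not overlap. Mt2 rose by 4.39 ± 0.45 (log2 fold change ± SE, adjusted p = 1.47e-05) and Mt1 by 2.97 ± 0.34 (adjusted p = 4.71e-05). Zinc 4, which lay with the Milli-Q libraries on the first principal component, was not low in these 2 genes, and without it the rises were 4.26 and 2.76. Mt2 overlaps an exon of an antisense gene (Gm45774), and counts of the 2 cannot be told apart if strand was not used.

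Mt4, a metallothionein of squamous epithelia, had 0 counts in the 3 Milli-Q libraries and 7, 1, 23 and 35 counts in zinc 1 to 4. Pooled over the group and set against a floor of 3 counts over the Milli-Q libraries, it was at least 16.3-fold higher on zinc (adjusted p = 0.0141). Mt3, known from the brain, ranged from 3.63 to 5.03 CPM on Milli-Q water and from 3.19 to 4.65 CPM on zinc (log2 fold change -0.17 ± 0.49, adjusted p = 0.854). So 3 of 4 metallothioneins rose, and the median of the list was 3.68, or 3.50 with Mt4 at its bound. The bound holds for the pooled group only, since Mt4 in zinc 2 (0.109 CPM) lay below the floor (0.126 CPM). Mt4 lost its call without Milli-Q 2 (adjusted p = 0.101) and was called in 5 of the 7 fits that left out 1 germ-free library.

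**Figure D2:**
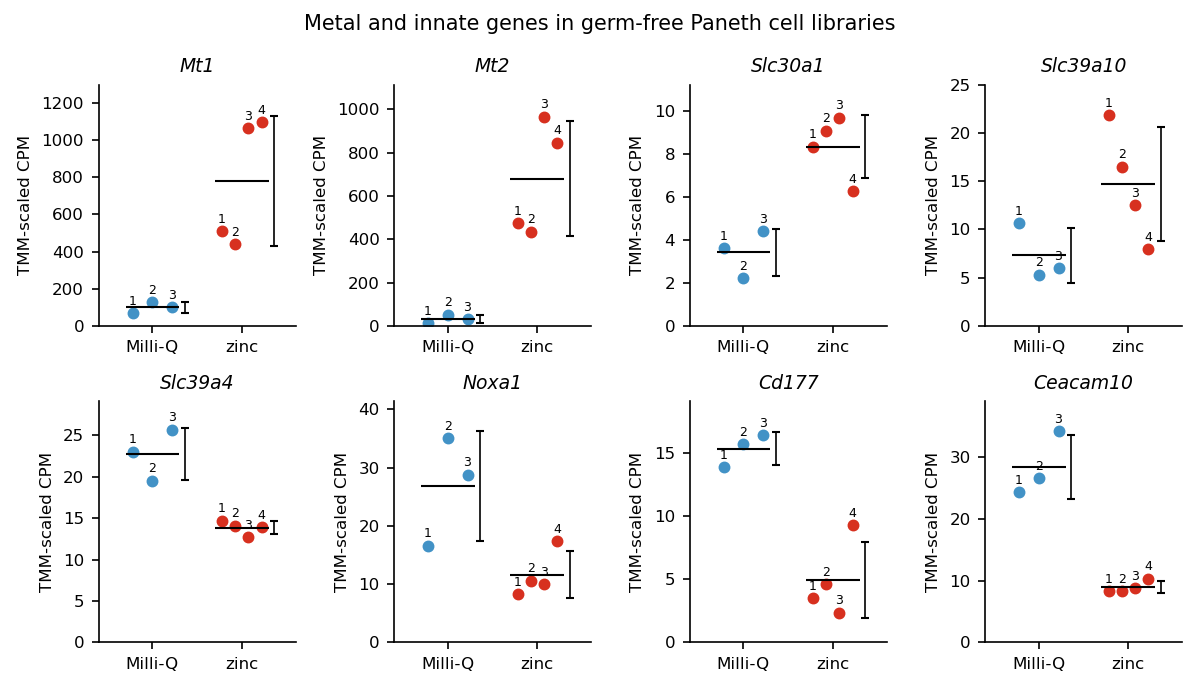
TMM-scaled CPM of 8 genes in each germ-free library (points, numbered by replicate), with the group mean (horizontal line) and SD (bar) for Milli-Q (blue, n = 3) and zinc water (red, n = 4). Mt1, Mt2 and Slc30a1 lie higher in all 4 zinc libraries, Slc39a4, Cd177 and Ceacam10 lower, while Slc39a10 and Noxa1 overlap.

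Among zinc exporters, 3 of 8 tested genes rose and none fell, against 5.89% higher and 5.47% lower over all genes. Slc30a1 stood at 3.63, 2.22 and 4.39 CPM on Milli-Q water and at 8.33, 9.07, 9.67 and 6.27 CPM on zinc, with no overlap (1.26 ± 0.32, adjusted p = 0.0179). It also overlaps an antisense gene, 1700034H15Rik. Slc30a5, which loads the early secretory pathway, ran from 32.1 to 34.2 CPM on Milli-Q water and from 34.2 to 52.3 CPM on zinc, with zinc 4 the lowest zinc library (0.39 ± 0.13, adjusted p = 0.0472). Slc30a4, an exporter of endosomal vesicles, stood at 44.2, 28.9 and 33.0 CPM in zinc 1 to 3 but at 16.6 CPM in zinc 4, below the 17.5 to 19.7 CPM of the Milli-Q libraries (0.71 ± 0.22, adjusted p = 0.0448). Slc30a2, which fills the Paneth cell granules with zinc, ran from 135 to 147 CPM on Milli-Q water and from 110 to 136 CPM on zinc and did not pass (-0.20 ± 0.16, adjusted p = 0.417). Slc30a10 reached 1.18 CPM at most (adjusted p = 0.661). Without Milli-Q 2, Slc30a1 had a log2 fold change of 1.05 (adjusted p = 0.131), and none of the exporters passed. Without zinc 1, 1 of the 8 passed.

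Among zinc importers, 1 of 13 rose and 1 fell, near the 5.89% higher and 5.47% lower over all genes. Slc39a4, the main uptake carrier of the gut, stood at 23.1, 19.5 and 25.7 CPM on Milli-Q water and at 14.7, 14.1, 12.7 and 13.9 CPM on zinc. The 4 zinc libraries lay within a narrow band below all Milli-Q libraries, and the fall was by 0.72 on the log2 scale (SE 0.23, adjusted p = 0.0461). It was past the threshold in 8 of 20 alternative fits, with log2 fold changes between -0.82 and -0.37. Slc39a10, a plasma membrane importer, stood at 10.6, 5.33 and 5.997 CPM on Milli-Q water and at 21.9, 16.5, 12.5 and 7.97 CPM on zinc. Zinc 1 was the highest and zinc 4 within the Milli-Q range (0.98 ± 0.28, adjusted p = 0.0292), and without zinc 1 the log2 fold change was 0.75 (adjusted p = 0.0970). Slc39a5, the carrier of the basolateral membrane, overlapped between groups (-0.09 ± 0.16, adjusted p = 0.759), as did Mtf1 (0.15 ± 0.22, adjusted p = 0.701).

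The rule for the 10 largest changes in each direction took only called genes at a mean of at least 5 CPM and without overlap between the groups, so that the lack of overlap below is no result. After Mt2 and Mt1 came Akr1c19, Sis, Scin, Ugt1a7c, Mme, Uba6, A1cf and Slc4a7. Akr1c19, an aldo-keto reductase, stood at 3.50, 6.51 and 4.71 CPM on Milli-Q water and at 18.8, 13.2, 37.9 and 36.7 CPM on zinc (2.46 ± 0.64, adjusted p = 0.0198). Sis, the sucrase-isomaltase of the brush border, stood at 3.24, 5.92 and 2.36 CPM on Milli-Q water and at 7.17, 7.98, 23.9 and 20.2 CPM on zinc (2.01 ± 0.49, adjusted p = 0.0161). In both genes zinc 3 and zinc 4 were the highest, and Milli-Q 2 the highest on Milli-Q water. Mme, the peptidase neprilysin, ran from 2.85 to 5.18 CPM on Milli-Q water and from 10.4 to 16.87 CPM on zinc (1.61 ± 0.37, adjusted p = 0.0130). Ugt1a7c, a UDP-glucuronosyltransferase, rose as well (1.65 ± 0.37, adjusted p = 0.0125), but 100% of its 60-base stretches are shared with other Ugt1a genes, so its counts are uncertain.

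The other genes of the 10 were Scin, an actin-severing protein (1.72 ± 0.46), Uba6, a ubiquitin-activating enzyme (1.55 ± 0.29), A1cf, which guides editing of the Apob transcript (1.51 ± 0.32), and Slc4a7, a bicarbonate transporter (1.47 ± 0.31), with adjusted p from 0.00923 to 0.0225 (for Scin, 0.0503 without zinc 1). Uba6, for example, stood at 5.05, 2.22 and 4.07 CPM on Milli-Q water and at 15.7, 13.1, 11.2 and 5.42 CPM on zinc, with zinc 4 just above Milli-Q 1. In Scin, Uba6, A1cf and Slc4a7, as in Ugt1a7c, zinc 4 was the lowest zinc library.

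The 10 largest falls all had zinc 4 as the zinc library nearest to Milli-Q water. Ceacam10, a secreted member of the carcinoembryonic antigen family, was the most even: it stood at 24.4, 26.6 and 34.3 CPM on Milli-Q water and at 8.33, 8.31, 8.85 and 10.3 CPM on zinc (-1.66 ± 0.32, adjusted p = 0.00923). Rgs11, a regulator of G protein signalling, stood at 13.5, 14.8 and 11.7 CPM on Milli-Q water and at 0.968, 2.62, 1.30 and 9.35 CPM on zinc (-1.82 ± 0.48, adjusted p = 0.0213). For Rgs11, zinc 4 lay near the lowest Milli-Q library, and the log2 fold change was -2.95 without it and -1.57 without zinc 1 (adjusted p = 0.0579). Tmem191, Zfp692 and Nsmf had the same pattern, with 11.5, 18.1 and 18.6 CPM in zinc 4 against at most 3.06, 7.54 and 10.1 CPM in the other zinc libraries. Cd177, Tle2, Meis3, Dus2 and Cenatac completed the 10, with falls by 1.6, 1.44, 1.35, 1.34 and 1.28 on the log2 scale. Tle2 is a transcriptional corepressor, Meis3 a homeobox factor, Dus2 a tRNA-modifying enzyme and Cenatac a factor of the minor spliceosome. Without Milli-Q 2 none of the 10 passed (adjusted p from 0.0631 to 0.172), and without zinc 1 Rgs11, Meis3 (adjusted p = 0.0528) and Zfp692 (adjusted p = 0.0588) did not.

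**Figure D3:**
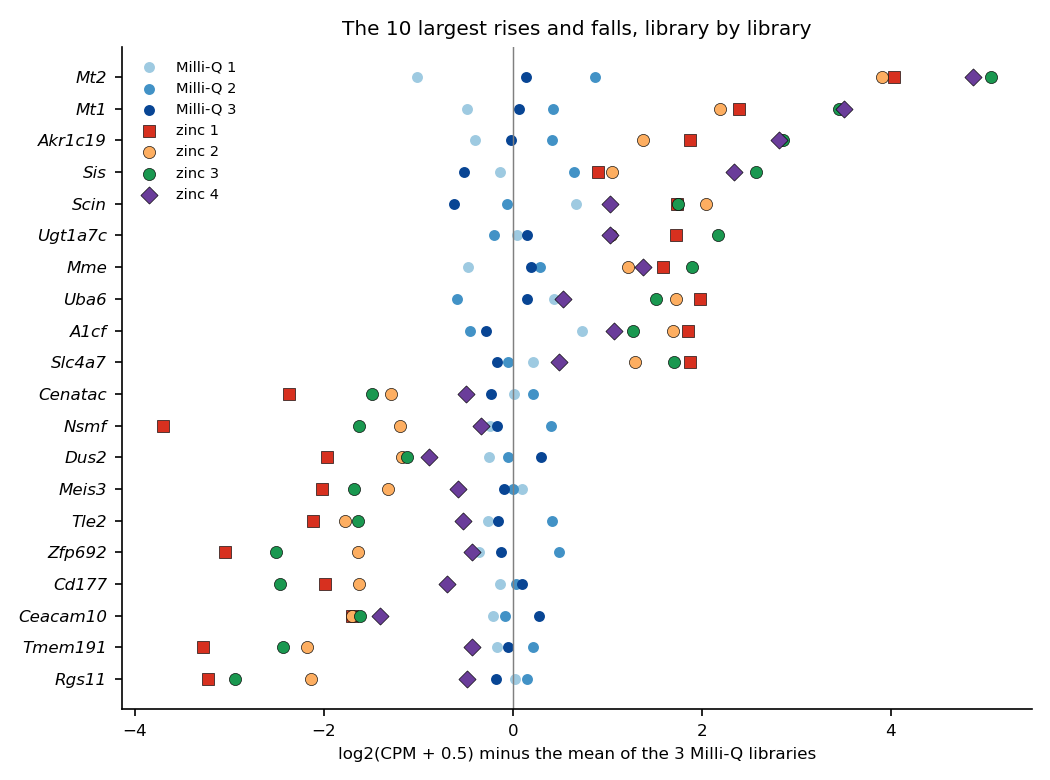
Log2 CPM of the named genes with the largest rises and falls in each germ-free library, relative to the mean of the Milli-Q libraries, with zinc and Milli-Q libraries marked apart. Zinc 4 lies nearest to the Milli-Q libraries in the genes that fell, and above zinc 1 and zinc 2 in Mt1, Mt2, Akr1c19 and Sis.

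Among genes for reactive oxygen, nitric oxide and bacterial sensing, 6 of 17 tested fell and none rose, against 5.47% lower over all genes. The list's median log2 fold change was -0.31, and 6 of the 17 values were positive. Of the 6 that fell, 3 were parts of the epithelial NADPH oxidase. Noxo1, its organizer, stood at 135, 180 and 127 CPM on Milli-Q water and at 47.5, 56.0, 57.9 and 118 CPM on zinc (-1.07 ± 0.24, adjusted p = 0.0124). Noxa1, its activator, stood at 16.6, 35.1 and 28.8 CPM on Milli-Q water and at 8.33, 10.6, 10.03 and 17.4 CPM on zinc (-1.19 ± 0.22, adjusted p = 0.00923). Cyba, the membrane subunit p22phox, ran from 47.7 to 57.9 CPM on Milli-Q water and from 19.9 to 30.1 CPM on zinc (-1.02 ± 0.20, adjusted p = 0.00990). In all 3 genes zinc 4 was the highest zinc library, and for Noxa1 it lay above Milli-Q 1. Nox1, the catalytic subunit, ran from 1.48 to 4.07 CPM on Milli-Q water and from 0.109 to 4.89 CPM on zinc (-0.47 ± 0.63, adjusted p = 0.659).

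The other 3 that fell were Nos2, the inducible nitric oxide synthase, Cd14, a co-receptor for lipopolysaccharide, and Cd177, a surface protein best known on neutrophils. Nos2 stood at 1.81, 1.78 and 4.39 CPM on Milli-Q water and at 0, 0.219, 0.708 and 0.957 CPM on zinc (-2.37 ± 0.66, adjusted p = 0.0269). Cd14 ran from 3.50 to 7.82 CPM on Milli-Q water and from 1.55 to 3.07 CPM on zinc (-1.13 ± 0.32, adjusted p = 0.0292). Cd177 stood at 13.9, 15.7 and 16.4 CPM on Milli-Q water and at 3.49, 4.59, 2.36 and 9.25 CPM on zinc (adjusted p = 0.0152). Without zinc 4, 6 of 17 genes passed, against 26.3% of all genes in that fit. Without zinc 1, 4 of 17 passed, against 3.72% of all genes. Cd14 (adjusted p = 0.0795) and Nos2 (adjusted p = 0.0643) were not among these 4. After correction for GC content and length, Cd14 (adjusted p = 0.08) and Nos2 (adjusted p = 0.0531) also lost their calls. Noxa1 (adjusted p = 0.0167) and Cd177 (adjusted p = 0.0414) kept theirs. Without Milli-Q 2 0 of 17 passed, and the list's median was -0.35. Of 14 tested genes known to be induced by microbes, 1 fell (Nos2), near the 5.47% of all genes, and none rose. The lectins Reg3b and Reg3g had log2 fold changes of 1.27 ± 0.51 (adjusted p = 0.0991) and 0.90 ± 0.36 (adjusted p = 0.0975) and overlapped between groups.

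Of 26 tested members of the integrated stress response, 6 fell (23.1%) and 1 rose (3.85%), against 5.47% and 5.89% of all genes, and the median was -0.36. Nupr1, a stress-induced chromatin protein, stood at 844, 1072 and 928 CPM on Milli-Q water and at 393, 364, 253 and 567 CPM on zinc, without overlap (-1.27 ± 0.21, adjusted p = 0.00851). Atf4, the central transcription factor of the response, ran from 353 to 386 CPM on Milli-Q water and from 189 to 294 CPM on zinc (-0.67 ± 0.15, adjusted p = 0.0129). Ppp1r15a, which restores translation, fell by 0.87 and Gdf15, a secreted stress signal, by 1.64 on the log2 scale. Shmt2 and Mthfd2, enzymes of mitochondrial one-carbon metabolism, fell by 0.57 and 0.45. Slc7a1, a carrier of cationic amino acids, rose by 0.62 ± 0.17 (adjusted p = 0.0253). Ddit3 (adjusted p = 0.0649) and Asns (adjusted p = 0.346) did not pass. Without zinc 4, 10 members fell and 1 rose, 4 fell without zinc 1, and without Milli-Q 2 none passed. Over all genes these fits called 26.3%, 3.72% and 0.0374%. With library totals 1 fell and 1 rose (median -0.19), and after correction for GC content and length 2 fell and 1 rose (median -0.16).

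Cytosolic tRNA synthetases, several of which answer to Atf4, had 1 rise and 3 falls among 20 tested genes and a median of -0.29. Over all genes 5.89% rose and 5.47% fell. Cars1, the cysteine enzyme, stood at 69.2, 73.9 and 69.9 CPM on Milli-Q water and at 30.02, 21.8, 25.4 and 50.9 CPM on zinc (-1.14 ± 0.21, adjusted p = 0.00923). Aars1 and Vars1 fell by 0.52 each. Among immediate early genes, 2 of 19 fell, Ier2 by 0.87 and Jund by 0.70, and the median was -0.49. This is 10.5% of the list against 5.47% of all genes, and 0 of 19 passed without zinc 1, without Milli-Q 2, with library totals or after correction for GC content and length, where the median was -0.13. Among NF-kB targets 1 of 18 fell, near the 5.47% of all genes. It was Nfkbia, the inhibitor of NF-kB (-0.53 ± 0.15, adjusted p = 0.0302).

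For the endoplasmic reticulum translocon and vesicle coats, 2 of 40 genes rose (5%) and 3 fell (7.5%), near the 5.89% and 5.47% of all genes, with a median of 0.01. Without zinc 4, 13 rose (32.5%) and 4 fell (10%), against 12% and 14.3% of all genes, and the median was 0.10. Without Milli-Q 2 none passed. Sec24d, a cargo adaptor of COPII vesicles, stood at 32.5, 19.2 and 39.5 CPM on Milli-Q water and at 119, 101, 74.9 and 44.3 CPM on zinc (1.47 ± 0.28, adjusted p = 0.00923), highest in zinc 1 and lowest in zinc 4. Copb1, of the COPI coat, rose by 0.76, while Sec63 fell by 0.50, Cope by 0.49 and Dad1 by 0.47. Of 26 unfolded protein response genes 2 rose (7.69%, against 5.89% of all genes), led by Dnajb9, a chaperone of the endoplasmic reticulum (1.06 ± 0.26, adjusted p = 0.0172). Without zinc 1, 0 of 26 passed (Dnajb9, adjusted p = 0.0601). Without zinc 4, 6 rose and 1 fell, against 12% and 14.3% of all genes. Of 34 autophagy genes 2 rose (Atg9a and Nbr1), near the 5.89% of all genes, and 4 fell, against 5.47%. The falls were led by Tfeb, the regulator of lysosomal genes (-0.79 ± 0.26, adjusted p = 0.0482). Of 37 proteasome subunits 4 fell, against 5.47% of all genes, led by Psmd4 (-0.65 ± 0.16, adjusted p = 0.0179), and 0 without zinc 1. Of 18 vacuolar ATPase subunits, Atp6v1a rose by 1.15 and Atp6v0b fell by 0.70, against 5.89% higher and 5.47% lower over all genes. Atp6v1a stood at 31.3 to 42.2 CPM in zinc 1 to 3. In zinc 4 it stood at 11.4 CPM, below the 11.7 to 14.8 CPM of the Milli-Q libraries.

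The granule products of the Paneth cell did not pass. For 20 tested α-defensin genes edgeR called 0, with 2 at an unadjusted p under 0.05 and 0 by DESeq2 or limma-voom, and the median was -0.13. Defa24 stood at 319900, 328300 and 316900 CPM on Milli-Q water and at 395700, 293000, 252500 and 233900 CPM on zinc (-0.13 ± 0.23, adjusted p = 0.747). With TMM scaling zinc 1 was above all Milli-Q libraries and zinc 2, 3 and 4 below them, but the TMM factor was 0.522 in zinc 1, 0.628 to 0.661 on Milli-Q water and 0.707 to 0.834 in the other zinc libraries. As CPM of the library total without TMM, Defa24 stood at 207500, 206200 and 209400 on Milli-Q water and at 206600, 207200, 196700 and 194900 on zinc, with zinc 1 and zinc 2 within the Milli-Q range. On the TMM scale the same order held for Itln1, an intestinal lectin, at 83400 to 84660 CPM on Milli-Q water and 89370, 62430, 47110 and 49530 CPM on zinc (-0.43 ± 0.23, adjusted p = 0.22), while as CPM of the total all 4 zinc libraries (36700 to 46670) lay below the Milli-Q libraries (52450 to 55100). Lyz1, lysozyme, was highest in zinc 1 (295800 CPM) and lowest in zinc 4 (142900 CPM), with the Milli-Q libraries between (adjusted p = 0.982). For 9 other granule products edgeR called 0, with 0 at an unadjusted p under 0.05 and 0 by either other tool, and the median distance from Milli-Q water was 0.42 in zinc 1 and -0.24, -0.49 and -0.69 in zinc 2, 3 and 4. With library totals these medians were 0.11 and -0.11, -0.22 and -0.32. Without zinc 1 the median log2 fold change of the list was -0.43 in place of -0.16. Reads shared among the near-identical Defa genes can have been split between them.

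As a share of all counts, the 28 Defa genes together took 44.0%, 44.5% and 42.8% on Milli-Q water and 41.6%, 41.6%, 39.3% and 42.0% on zinc. The means were 43.8% ± 0.845 (SD, n = 3) and 41.15% ± 1.22 (SD, n = 4), and all zinc libraries lay below all Milli-Q libraries. The difference of -2.62 percentage points gave p = 0.0571 in a two-sided exact permutation test, the smallest p that 4 against 3 libraries allow. Without mitochondrial genes and 18S RNA in the total the difference was -1.99 (exact p = 0.114). The share of 18S RNA was 10.03% in zinc 1 against 3.37% to 6.57% in the other 6 libraries, and its part in these values was not tested.

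Of 13 mitochondrially encoded genes, 6 (mt-Atp6, mt-Atp8, mt-Co2, mt-Co3, mt-Nd3 and mt-Nd4l) were listed at 0 in all 7 libraries. Of the 7 tested, 5 rose, against 5.89% of all genes. mt-Co1, a subunit of cytochrome oxidase, stood at 7210, 3162 and 3760 CPM on Milli-Q water and at 10010, 10620, 14520 and 5268 CPM on zinc (1.1 ± 0.28, adjusted p = 0.0189). mt-Nd1, mt-Nd2, mt-Nd5 and mt-Cytb rose by 0.87 to 1.04 on the log2 scale, with zinc 3 the highest and zinc 4 the lowest zinc library in each. Zinc 4 lay below Milli-Q 1 in each of the 5 genes, and mt-Nd4 and mt-Nd6 did not pass. Of 77 nuclear subunits of oxidative phosphorylation 2 rose, led by Cox7b (0.54 ± 0.17, adjusted p = 0.0385), and none fell. Both shares lay below the 5.89% and 5.47% of all genes. Of the 5 calls in mitochondrial genes 0 remained without Milli-Q 2, 3 without zinc 1 and 1 after correction for GC content and length.

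Brush border enzymes and transporters had 4 rises (22.2%) and 1 fall (5.56%) among 18 tested genes, against 5.89% and 5.47% of all genes, and a median of 0.74. Without zinc 4 the calls were again 4 and 1 but the median was 0.10, and that fit called 1568 of 13057 tested genes higher and 1867 lower. Without Milli-Q 2 none passed and the median was 1.17. Besides Sis, Slc5a1, the sodium-glucose cotransporter, rose (0.73 ± 0.16, adjusted p = 0.0124). The others that rose were Dpp4, a dipeptidyl peptidase of the surface (0.57 ± 0.14), and Mep1a, a meprin subunit (0.94 ± 0.29). Slc5a1 stood at 40.6, 42.6 and 45.9 CPM on Milli-Q water and at 58.7, 76.2, 75.6 and 74.2 CPM on zinc, without overlap. Cdhr5, a cadherin of the brush border, fell by 0.58. Other enterocyte genes moved with single libraries in both groups. Fabp2, a fatty acid binding protein, stood at 85.3, 216 and 108 CPM on Milli-Q water and at 146, 106, 210 and 438 CPM on zinc (adjusted p = 0.154). Apoa4, an apolipoprotein, stood at 18.5, 128 and 50.6 CPM on Milli-Q water and at 14.7, 5.47, 133 and 303 CPM on zinc (adjusted p = 0.605). Both were high in Milli-Q 2, zinc 3 and zinc 4, and the median of the 8 enterocyte markers lay at 0.98, 1.12 and 2.35 in these libraries and between -0.89 and 0.07 in the other 4. Without zinc 4 the list's median log2 fold change was -0.03 in place of 0.76, while its 2 calls, Sis and Slc5a1, passed. The part of enterocyte RNA in these results was not tested. Apob, the scaffold of chylomicrons, rose among 16 lipid absorption genes (0.93 ± 0.27, adjusted p = 0.0330), against 5.89% of all genes. After correction for GC content and length its log2 fold change was 0.50 (adjusted p = 0.258).

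Interferon-stimulated genes moved with zinc 4 and Milli-Q 2. For 22 tested genes edgeR called 0, with 0 at an unadjusted p under 0.05 and 0 by DESeq2, while limma-voom called 6 lower. The limma-voom fit weighted libraries by quality and gave zinc 4 the lowest weight (0.371). Irf7, a transcription factor of the response, stood at 14.0, 99.0 and 26.0 CPM on Milli-Q water and at 15.3, 14.2, 6.73 and 88.6 CPM on zinc. Oas1a, a sensor of viral RNA, stood at 5.96, 42.6 and 14.9 CPM on Milli-Q water and at 5.62, 6.89, 4.601 and 35.6 CPM on zinc. Milli-Q 2 and zinc 4 were far above the others in both. Without zinc 4, 10 of 22 genes passed lower and the median was -1.09, in place of -0.26. That fit called 1867 of 13057 tested genes lower. Without Milli-Q 2 the median was 0.46 with 0 called.

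MHC class II genes set a single Milli-Q library apart. The summed level of the 7 tested genes was 21.8, 41.7 and 337 CPM in Milli-Q 1 to 3 and 23.4, 42.8, 24.4 and 28.2 CPM in zinc 1 to 4. Cd74, the invariant chain, stood at 191 CPM in Milli-Q 3 and at 6.39 to 21.8 CPM in the other 6 libraries. The median log2 fold change was -1.89, yet edgeR called 0 of 7, with 2 at an unadjusted p under 0.05 and 0 by DESeq2 or limma-voom. The 12 immune markers summed to at most 0.00114% of counts in any germ-free library.

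Of 30 proliferation genes 4 rose and none fell, against 5.89% and 5.47% of all genes, with a median of 0.30. Ccna2, cyclin A2, stood at 22.9, 28.0 and 30.5 CPM on Milli-Q water and at 45.3, 45.6, 57.8 and 39.8 CPM on zinc, without overlap (0.79 ± 0.16, adjusted p = 0.0101). Ccnb1, cyclin B1, rose by 0.78, Kif11, a spindle motor, by 0.72 and Cenpa, the centromeric histone, by 0.71, while Mki67 did not pass (adjusted p = 0.992). Slc12a2, a chloride cotransporter of crypt cells, rose by 0.59 ± 0.18 (adjusted p = 0.0377), and its zinc 4 level of 312 CPM lay within the 280 to 405 CPM of Milli-Q water. Markers of crypt stem cells took 0.155% to 0.229% of counts on Milli-Q water and 0.212% to 0.374% on zinc, and in bulk libraries more cells of a type and more RNA per cell cannot be told apart.

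**Figure D4:**
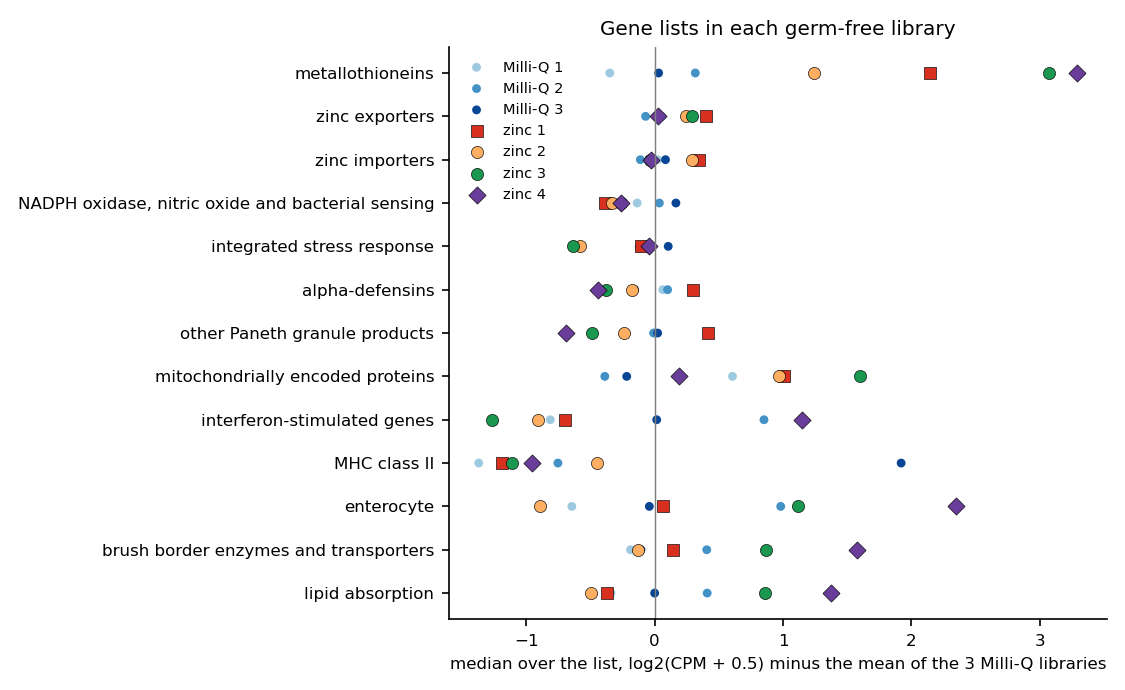
Median over each gene list of log2(CPM + 0.5) minus the mean of the 3 Milli-Q libraries (horizontal axis), for each germ-free library (Milli-Q in blues, zinc in red, orange, green and purple). Metallothioneins are higher in all 4 zinc libraries, while zinc 4 is the highest library for enterocyte and interferon-stimulated genes and Milli-Q 3 for MHC class II.

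In smaller numbers, 1 of 21 Nrf2 targets rose (Gsta1, at 0 to 11.3 CPM) and 1 fell (Ftl1), 2 of 24 genes of fatty acid oxidation rose (Ppara and Ehhadh) and 1 fell (Acaa1a), 1 of 24 genes of cholesterol synthesis rose (Idi1) and 1 fell (Fdps), and Clock rose by 0.63 among 17 clock genes. Ftl1, the ferritin light chain, shares 76.7% of its 60-base stretches with pseudogenes. Of 75 cytosolic ribosomal proteins 2 fell and of 77 mitochondrial ribosomal proteins 2 fell, led by Mrpl24 (-0.69 ± 0.16). Over all genes 5.89% rose and 5.47% fell, so these lists were near or below those shares. In 18 secretory lineage transcription factors, 16 cytosolic heat shock genes, 8 niche ligands and 8 goblet cell markers edgeR called 0, with 3, 2, 3 and 4 at an unadjusted p under 0.05. DESeq2 called 1, 0, 0 and 1 of these and limma-voom 2, 0, 2 and 4.

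GC content moved with the calls. Genes called higher had a median GC content of 44.6% and a median length of 6090 bases, genes called lower 54.8% and 3354 bases, against 49.3% and 4180 bases over all tested genes. In the fifth of genes lowest in GC, the median log2 distance from the Milli-Q mean was 0.29, 0.28 and 0.32 in zinc 1 to 3, and in the fifth highest in GC it was -0.46, -0.32 and -0.43. In zinc 4 these medians were 0.05 and -0.06. Each Milli-Q library was set against the mean of the other Milli-Q libraries, so their values depend on each other. They were 0.21 and -0.17 in Milli-Q 1 and -0.13 and 0.17 in Milli-Q 2, the opposite slope. After a correction for GC content and length in each library, 657 genes were called (367 higher, 290 lower), 473 of them shared with the 1485. Mt1 and Mt2 then rose by 3.19 and 4.80 on the log2 scale. Of the 66 named genes, 20 lost their calls. They included Slc39a4 (-0.37, adjusted p = 0.364) and Slc39a10 (0.50, adjusted p = 0.185). Among the largest rises Akr1c19 (2.17, adjusted p = 0.0502), Sis (1.70, adjusted p = 0.0509) and Mme (1.13, adjusted p = 0.067) lost theirs. Among the largest falls Meis3 did (-0.97, adjusted p = 0.0598). Slc30a1 (1.13), Noxa1 (-0.82), Nupr1 (-1.16) and Ceacam10 (-1.66) were still called.

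**Figure D5:**
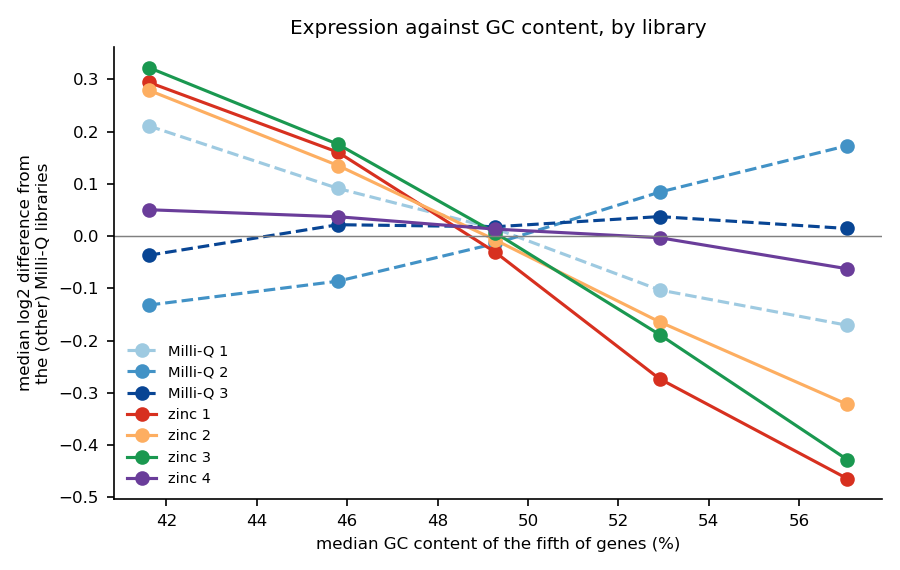
Median log2 distance from the Milli-Q mean for genes in 5 groups of rising GC content (horizontal axis), 1 line for each germ-free library. Each Milli-Q library is set against the mean of the other Milli-Q libraries. Zinc 1, 2 and 3 fall from about 0.3 to below -0.3 with GC content, zinc 4 stays between 0.05 and -0.06, and Milli-Q 1 and 2 slope in opposite directions.

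The response was set against the same water in the other contexts, each with its own Milli-Q controls. Of 13070 genes, 27 (0.207%) differed in their zinc effect between germ-free and antibiotic-treated mice. Ly75 rose in germ-free mice, from 1.25 ± 0.19 (SD, n = 3) on Milli-Q water to 6.94 ± 1.85 CPM (n = 4) on zinc, and stood at 6 ± 1.77 and 5.53 ± 1.12 CPM after antibiotics (4 libraries each), a difference of 2.57 ± 0.42 (adjusted p = 0.0222). Its low value was that of germ-free mice on Milli-Q water, since SPF mice stood at 4.85 ± 1.55 and 6.43 ± 1.02 CPM. Pde3a, a phosphodiesterase, went from 8.04 ± 1.91 to 18.8 ± 5.07 CPM in germ-free mice and from 14.9 ± 2.13 to 13.4 ± 2.77 CPM after antibiotics. On Milli-Q water SPF mice stood at 18.5 ± 2.61 CPM, so the low value was again that of germ-free mice on this water.

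On the negative side, 18 of the 27 genes had a lower zinc effect in germ-free mice. They included Ndufaf4, an assembly factor of complex I (-1.25 ± 0.25), Zcchc17, a nucleolar protein (-1.12 ± 0.20), and Orc2, of the origin recognition complex (-1.09 ± 0.23), with adjusted p from 0.0222 to 0.0420. Zcchc17 fell in germ-free mice from 22.3 ± 3.24 to 14.5 ± 2.01 CPM and rose after antibiotics from 12.1 ± 0.927 to 17.1 ± 1.46 CPM. Aars1 likewise went from 125 ± 6.98 to 86.8 ± 7.05 CPM in germ-free mice and from 60.2 ± 5.26 to 87.6 ± 14.1 CPM after antibiotics. SPF mice on Milli-Q water stood at 13.3 ± 1.77 CPM for Zcchc17 and 62 ± 11.8 CPM for Aars1. In both genes the Milli-Q level was thus highest in germ-free mice. The count rested on single libraries: edgeR called 0 genes without germ-free Milli-Q 2 (1565 at an unadjusted p under 0.05), Milli-Q 3 (1882) or zinc 2 (1934), and 0 without Milli-Q 4 (1925) or zinc 1 (1708) of the antibiotics group. It called 362 without germ-free Milli-Q 1, 296 without zinc 4 and 38 without zinc 1. With all libraries DESeq2 called 323 and limma-voom 767. Between germ-free and SPF mice edgeR called 0 genes for a difference of the zinc effect (0%), with 1741 at an unadjusted p under 0.05, 34 by DESeq2 and 354 by limma-voom, and 767 by edgeR without zinc 4.

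The metallothioneins did not differ past the threshold between contexts. The Mt2 difference was -1.48 ± 0.57 against SPF mice (adjusted p = 0.285) and -1.26 ± 0.52 against antibiotics (adjusted p = 0.230). On Milli-Q water Mt2 stood at 8.48 ± 3.55 CPM in SPF mice, 14.9 ± 5.27 CPM after antibiotics and 32.6 ± 19.4 CPM in germ-free mice, and on zinc at 495 ± 80.8, 747 ± 283 and 680 ± 266 CPM. For Slc39a4 the log2 fold change was -0.72 in germ-free mice, -1.40 in SPF mice and -1.0 after antibiotics, each past the threshold. For Cd177 the values were -1.60, -2.90 and -1.15, for Noxa1 -1.19, -1.16 and -1.06, for Cd14 -1.13, -1.64 and -1.64, and for Nos2 -2.37, -3.14 and -3.40, all past the threshold in their own context.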

How the data were processed

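RNA-seq was done on FACS-purified Paneth cells, with total RNA from column kits and TruSeq stranded mRNA libraries. The authors deposited 1 table of raw counts per gene for 21 libraries. The submitters' processing notes name FastQC (0.12.0), STAR (2.7.0a), DESeq2 and mm39. The sources used here do not state how reads were assigned to genes, whether strand was used or how reads with several hits were treated. Reads of near-identical or overlapping genes may therefore have been split or merged, and 6 mitochondrial genes listed at 0 were not interpreted.

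Groups came from the sample labels. Milli-Q 1, 2 and 3 are numbered by title (columns 1, 3 and 4). Counts were filtered with filterByExpr, scaled by TMM and tested with edgeR (4.0.16) quasi-likelihood in 1 model of 6 groups and 21 libraries, which share an estimate of the spread, with Benjamini-Hochberg adjustment over all 13070 genes and a threshold of 0.05. All adjusted p-values in the text are from this test unless another tool is named. Differences of zinc effects between contexts were interaction contrasts. The Defa share was tested by an exact permutation test (scipy 1.17.1). The edgeR step was tested on simulated data. Totals per library limit the precision of low counts.

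Named genes were the 10 largest called rises and falls at a mean of at least 5 CPM without overlap between groups, the largest called rise and fall of each list, 20 fixed genes, and the 3 largest called differences in each direction per interaction contrast. Of these, 3 genes are not reported here. Members, rule and gene lists were chosen with earlier results of these data known. List members outside the rule were named after their values were seen. Alternatives were DESeq2 (1.42.0), limma-voom with quality weights (limma 3.58.1), other scalings and filters, replicate blocks and fewer libraries. A correction for GC content and length was chosen after seeing the data. In limma-voom zinc 4 had the lowest weight of all libraries (0.371), so its counts are not independent of the fits without zinc 4. Gene positions and lengths came from GENCODE M39 (GRCm39), which matched 54749 of 55414 identifiers.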

Additional observations from a re-analysis of the deposited data

Results flagged for a closer look

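Among the 4 zinc libraries, 78 values were searched for a library far from the other 3 by Dixon's test at the 95% level, and 4 were found. Chance alone gives about 1 in 20. Reg3b stood at 7.433 CPM in zinc 2, against 13.92 to 14.67 CPM in the other zinc libraries. In zinc 4, Slc12a2 was low (312.5 CPM against 531.2 to 573.5). The Defa share was 39.34% in zinc 3 against 41.63% to 41.99%. Red blood cell markers took 3.034e-05% of counts in zinc 1 and 0 in the others, where any count at all would have been flagged.

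For 5 named genes the zinc effect differed between germ-free and antibiotic-treated mice in the edgeR interaction test. The log2 difference (germ-free minus antibiotics) was 2.571 for Ly75, 1.371 for Pde3a, -1.086 for Orc2, -1.118 for Zcchc17 and -1.249 for Ndufaf4.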

How the results depend on the processing

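For zinc against Milli-Q water (1485 genes), edgeR called 734 with library totals, 3 in the germ-free libraries alone, 2496 in those without zinc 4, 2435 without zinc 1 and zinc 4, and 657 after correction for GC content and length, and limma-voom called 3157. Leaving out 1 library gave 5 to 3435 genes. For germ-free minus SPF mice (0 genes), DESeq2 called 34, limma-voom 354, edgeR without a filter on low counts 429 and without zinc 1 and zinc 4 245, and leaving out 1 library gave 0 to 767. For germ-free minus antibiotics mice (27 genes), the counts were 3 with library totals, 323 with DESeq2, 767 with limma-voom, 323 without a filter and 68 without zinc 1 and zinc 4, and leaving out 1 library gave 0 to 362. The Defa difference ran from -3.09 to -2.018 when 1 library was left out. The cause of these changes was not tested.

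The samples share only a number. Deviations of same-numbered libraries correlated at 0.137, -0.166 and 0.0606 by title and at 0.137, -0.0465 and -0.101 by column number. With a replicate block by title 3654, 1140 and 545 genes were called in the 3 comparisons, and with one by column number 739 in the first.

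Among genes that did not pass, the sign of the log2 fold change turned under some settings. Lyz1 was 0.0013 with DESeq2-type size factors and with DESeq2, 0.0499 with library totals, 0.035 without a filter, 0.077 with the title block, 0.0296 in the germ-free libraries alone, 0.165 in those without zinc 4 and 0.0061 after GC correction, and ran from -0.26 to 0.12 when 1 library was left out. Slc39a5 was 0.0729 with library totals and 0.39 after GC correction, and ran from -0.27 to 0.12. Mtf1 ran from -0.093 to 0.31. Slc30a10 was -0.52 with limma-voom, Defa24 0.0091 in the germ-free libraries without zinc 4, and Mt3 0.25 and Slc30a2 0.08 after GC correction.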
